A study of Mus musculus with 7 samples.

Results

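Immediate-early genes are switched on within minutes of a growth, stress or injury signal without new protein synthesis, mainly through MAP kinases acting on serum response factor and on CREB-type factors at their promoters. Many encode transcription factors. Fos and Jun proteins pair as the AP-1 factor, which binds promoters of genes of growth, migration and differentiation. Their transcripts are short-lived, and tissue handling before RNA extraction is known to induce them.

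The 10 genes described here were Fos, Fosb, Jun, Junb, Jund, Egr1, Atf3, Ier2, Btg2 and Ccn1, also called Cyr61. They were found as all non-control probes of the array whose transcript accession maps to 1 of these genes, which gave 14 probes and 32 spots of the 41174 probes and 17012 named genes on the array. Of the 10 genes, 8 passed the filter on signal, through 11 probes. Fos and Jun did not.

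The samples were prostates of C57Bl/6 mice. The 3 PB-NICD samples came from ARR2PB-Cre;ROSA(N1IC) mice, whose Cre, driven by the prostate-directed ARR2PB promoter, releases expression of the Notch1 intracellular domain at ROSA, and which form prostatic intraepithelial neoplasia, a precursor lesion. The 4 control prostates were those of ROSA(N1IC) mice, described in the labels as wild-type for this domain. Both groups therefore carry the ROSA(N1IC) allele. The sources used here give neither age nor the number of mice per sample, and p-values measure the spread between these samples. Each prostate RNA was read in the red channel against a universal mouse reference RNA in the green channel, without a dye swap. A log2 ratio is that of prostate over reference, and a change is the mean of PB-NICD less that of control. The tissue is whole prostate, so fewer cells of a type and less RNA per cell cannot be told apart.

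Notch1, whose intracellular domain is expressed from ROSA in PB-NICD, read 2.47, 2.63 and 2.74 on PB-NICD 1 to 3 (log2 ratio). It read 0.05, 0.30, 0.84 and 0.67 on control 1 to 4. Whether the probe reads RNA from ROSA, from the Notch1 gene itself or from both was not tested. The spot on PB-NICD 1 was marked as an outlier. Pbsn, a secretory protein of luminal prostate cells, stood at 9.81 to 10.1 in PB-NICD and 10.1 to 11.7 in control, far above the reference on every array. PB-NICD 1, control 1 and control 2 shared slide 1, and the other 4 arrays shared slide 2. The median sample signal of an array was at least 88 in PB-NICD and at most 87.5 in control, over a median background of 53 to 55. Within a group, arrays correlated across genes at r = 0.945 to 0.955 in PB-NICD and 0.927 to 0.962 in control.

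The 300 bases around the start of 8 members are in the RefSeq promoter table of the GRCm38.p6 assembly, from 250 before the start to 50 after it. Ier2 and Egr1 have no promoter there. The 4 below are shown because Ccn1 was the member that fell, Btg2 holds the most of the searched motifs, Fos names the family and Junb was the brightest member. Capitals mark every match, on either strand, to the motifs described after them. They are Ccn1 (chr3:145649936-145650235, minus strand), Btg2 (chr1:134079106-134079405, minus strand), Fos (chr12:85473640-85473939, plus strand) and Junb (chr8:84978699-84978998, minus strand).
Ccn1: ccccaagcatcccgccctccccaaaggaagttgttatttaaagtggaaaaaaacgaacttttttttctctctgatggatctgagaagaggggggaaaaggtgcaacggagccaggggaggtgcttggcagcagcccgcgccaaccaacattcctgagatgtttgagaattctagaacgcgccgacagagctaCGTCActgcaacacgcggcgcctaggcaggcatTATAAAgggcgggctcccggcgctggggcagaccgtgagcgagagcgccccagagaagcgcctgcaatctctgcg
Btg2: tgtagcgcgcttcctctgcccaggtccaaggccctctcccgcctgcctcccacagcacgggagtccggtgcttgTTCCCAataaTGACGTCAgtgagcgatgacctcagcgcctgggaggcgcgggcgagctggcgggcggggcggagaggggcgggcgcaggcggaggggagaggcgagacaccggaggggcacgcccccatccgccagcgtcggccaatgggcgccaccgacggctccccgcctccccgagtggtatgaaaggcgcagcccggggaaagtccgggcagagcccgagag
Fos: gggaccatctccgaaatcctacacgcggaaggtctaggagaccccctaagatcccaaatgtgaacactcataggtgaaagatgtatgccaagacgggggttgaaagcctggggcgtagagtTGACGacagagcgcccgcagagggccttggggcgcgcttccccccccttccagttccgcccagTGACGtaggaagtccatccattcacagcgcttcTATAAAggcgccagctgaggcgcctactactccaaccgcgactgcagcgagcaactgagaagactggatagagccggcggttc
Junb: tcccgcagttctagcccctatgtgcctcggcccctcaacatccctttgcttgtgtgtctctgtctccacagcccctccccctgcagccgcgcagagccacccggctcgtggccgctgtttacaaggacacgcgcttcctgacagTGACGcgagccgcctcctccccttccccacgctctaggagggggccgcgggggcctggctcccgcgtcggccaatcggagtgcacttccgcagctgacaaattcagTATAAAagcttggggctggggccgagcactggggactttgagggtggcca

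In all, 7 motifs were searched on both strands, 6 of them chosen before these promoters were read. The TATA box TATAAA was in 3 of the 8 promoters (Fos, Junb and Ccn1) and in 13.6% of all 32851 promoters of this length. The RBPJ core TGGGAA, bound by the DNA-binding partner of Notch, was in 3 of 8 (Jun, Jund and Btg2) and in 25.6% of all. The full CRE TGACGTCA, bound by CREB and ATF factors, was in Btg2 alone and in 1.79% of all. The CArG box of serum response factor (1.63% of all), the AP-1 site TGANTCA (7.81%) and the EGR site GCGTGGGCG (0.612%) had no match in the 8. Bases farther than 250 before the start, and the promoters of Ier2 and Egr1, were not searched. The genes may therefore hold such sites elsewhere. The remaining motif, TGACG, a partial CRE, was added after the 8 promoters had been read and because it was seen in them. It was in 6 of 8, against 20.8% of all promoters, and this count was fixed by that choice, so it shows nothing about the members. It also lies inside the full CRE. A match is a run of letters, not a binding site.

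Ier2 rose and Ccn1 fell, and the other 6 tested members did not pass the test. These were 2 of 8 members past an adjusted p of 0.05 (limma, Benjamini-Hochberg over 16939 items), beside 8.58% of all items (3.58% higher and 5.01% lower in PB-NICD). An unadjusted p under 0.05 was reached by 2 members and 21.7% of all items, and the groups did not overlap in 2 members and 25.6% of all items. With every probe fitted on its own, 2 of the 11 member probes passed, beside 8.23% of all probes. The median change of the 8 members was -0.08, beside -0.02 over all items. Both calls rest on a step chosen after the data were seen. On PB-NICD 1 and control 3, 9 spots had a local background far above the spot, and they were left out. They shifted the background fit of both arrays, that of PB-NICD 1 by far the most. With these spots kept, 0 of 8 members and 455 items in place of 1454 were called. The count fell to 1 without PB-NICD 2, PB-NICD 3, control 1, control 2 or control 4, each time through Ccn1.

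**Figure D1:**
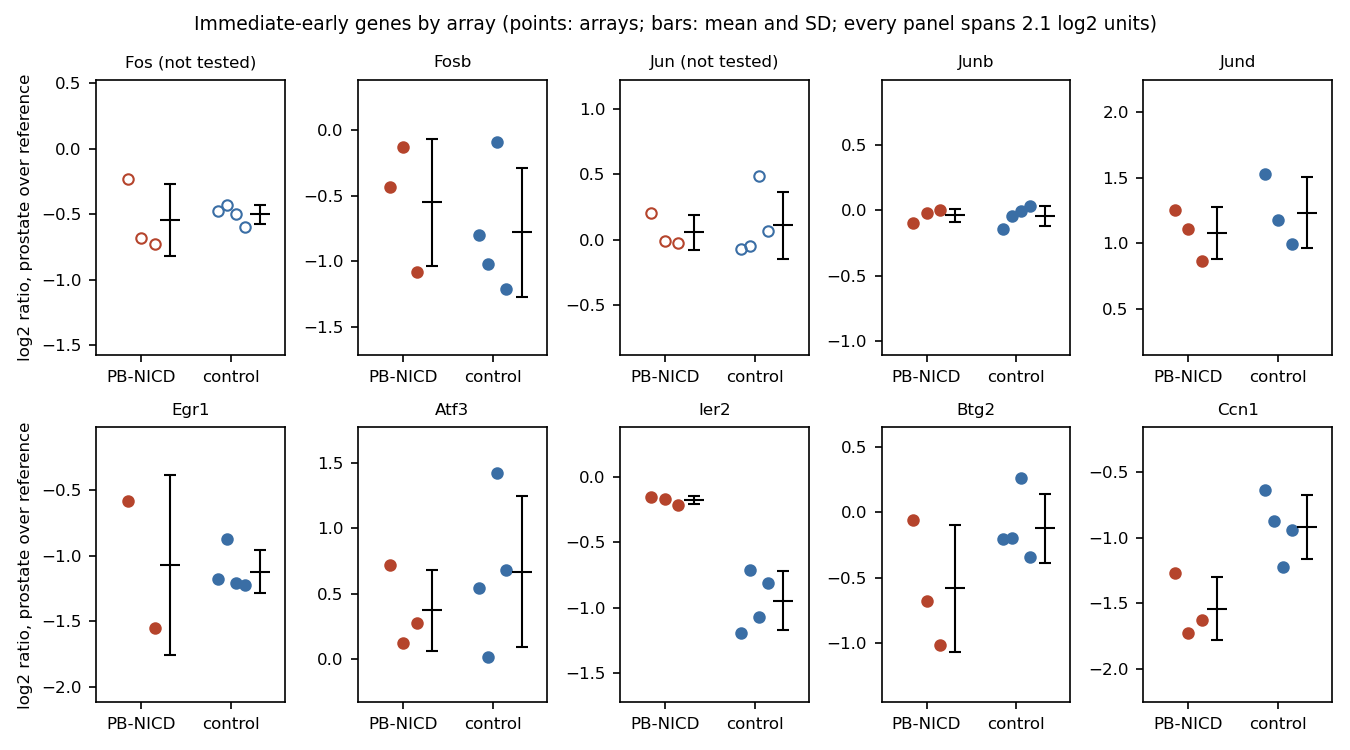
Log2 ratio of prostate over reference (vertical axis) for the 10 genes on each array, 3 PB-NICD arrays left of 4 control arrays, with mean and SD beside the points. Open points are Fos and Jun, which did not pass the filter on signal. The PB-NICD points of Ier2 lie above all its control points, those of Ccn1 lie below, and the groups overlap in the other 8 genes.

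Ier2 encodes a nuclear protein of the immediate response to growth factors. Its log2 ratio was -0.16, -0.17 and -0.22 on PB-NICD 1 to 3, against -1.20, -0.71, -1.08 and -0.82 on control 1 to 4. All PB-NICD arrays lay above all control arrays, as they did for 10.5% of all items. The background-subtracted sample signal was 609.5, 940 and 722 in PB-NICD, against 110.5, 185, 268.5 and 282 in control, before normalization. The mean ratio was -0.18 ± 0.03 in PB-NICD (SD, n = 3) and -0.95 ± 0.23 in control (SD, n = 4). The change was 0.77 ± 0.13 (SE), 1.70-fold, with a 95% interval of 0.47 to 1.06 and a limma adjusted p = 0.00545. Between the groups, the reference channel of Ier2 differed by 0.058 and its sample channel by 0.90, each normalized alone.

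The rise of Ier2 passed in 22 of 24 alternative settings, with changes of 0.64 to 1.38. Within slide 1, which holds 1 PB-NICD array against 2 controls, the change was 0.79 (adjusted p = 0.0874), from a fit that pools the spread of both slides and assumes that this array varies like the others. Slide 2 gave 0.75 (adjusted p = 0.0387), and keeping the 9 spots gave 0.64 (adjusted p = 0.0718). No array had the second Ier2 probe well above background, and it was not tested. It read -0.04, -0.15 and 0.30 in PB-NICD, against -0.31, 0.21, -0.44 and -0.17 in control, so the rise rests on 1 probe.

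Ccn1 encodes a secreted matrix protein that signals through integrins and is not a transcription factor. Its log2 ratio was -1.27, -1.73 and -1.63 on PB-NICD 1 to 3, against -0.63, -0.87, -1.22 and -0.94 on control 1 to 4. All PB-NICD arrays lay below all control arrays, as for 15.1% of all items, and the gap between PB-NICD 1 and control 3 was small. The mean was -1.54 ± 0.24 in PB-NICD (SD, n = 3) and -0.92 ± 0.24 in control (SD, n = 4). The change was -0.62 ± 0.16 (SE), a fold of 0.650, with an interval of -0.98 to -0.27 and a limma adjusted p = 0.0386.

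The fall of Ccn1 passed in 11 of 24 alternatives. It no longer passed without PB-NICD 2 (-0.53, adjusted p = 0.154), PB-NICD 3 (-0.58, 0.124), control 1 (-0.53, 0.0857), control 2 (-0.61, 0.0860) or control 4 (-0.63, 0.0780). Median centring in place of loess turned its direction (0.057, adjusted p = 0.797). The sample signal before normalization was 401, 369 and 396 in PB-NICD, against 274, 237, 361 and 357 in control, so the unnormalized order was the opposite of that of the ratios. With the sample channel alone after quantile normalization the change was -0.40 (adjusted p = 0.267).

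**Figure D2:**
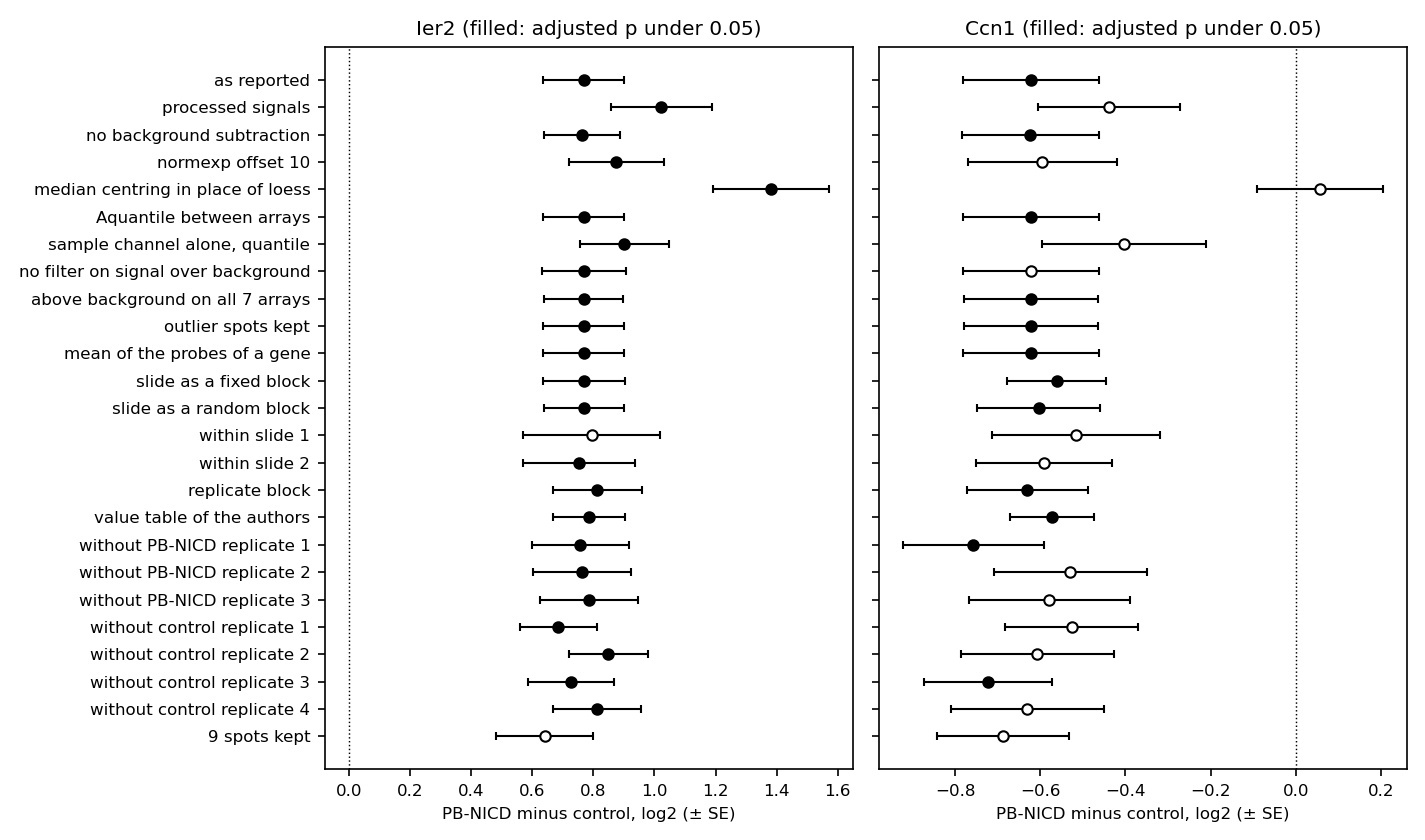
Change of Ier2 (left) and Ccn1 (right), PB-NICD minus control in log2 units with SE, as reported and under each of 24 alternatives. Filled points passed an adjusted p of 0.05. Ier2 lies right of 0 in all of them and Ccn1 left of 0 in all but median centring.

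Among the AP-1 subunits, Junb, a Jun protein that often restrains growth, had the highest sample signal of the members. It read -0.10, -0.02 and 0.00 in PB-NICD, against -0.15, -0.04, -0.01 and 0.03 in control. The groups overlapped, and the change was 0.0027 ± 0.10 (SE), with an interval of -0.22 to 0.23. The other Junb probe gave -0.23 ± 0.16. Jund, the Jun protein with the steadiest expression in most cells, read 1.25, 1.11 and 0.86 in PB-NICD, against 1.53, 1.18 and 1.00 on control 1, 2 and 4. The control 3 spot was an outlier and was left out. Its change was -0.16 ± 0.17 (adjusted p = 0.651).

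Fosb, a partner of Jun proteins, read -0.44, -0.13 and -1.08 in PB-NICD, against -0.80, -1.02, -0.09 and -1.21 in control. The spread within each group was wider than the change of 0.23 ± 0.28 (SE, adjusted p = 0.696). Atf3, a stress-induced bZIP factor that can pair with Jun, read 0.72, 0.13 and 0.27 in PB-NICD, against 0.55, 0.02, 1.42 and 0.68 in control. Its groups overlapped too, with a change of -0.29 ± 0.28 (adjusted p = 0.613).

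Fos and Jun, the classical AP-1 pair, were each printed as 10 replicate spots and were near background in prostate. By its averaged call Fos exceeded background on none of the arrays, although the reference channel was on all 7. Its median background-subtracted signal was 29.75, 13.75 and 10.25 in PB-NICD, against 0.75, 2.25, 8.25 and 3 in control. On PB-NICD 1, 2 of 10 spots were well above background, and none on the other arrays. Its log2 ratio was -0.23, -0.68 and -0.73 in PB-NICD, against -0.48, -0.43, -0.50 and -0.60 in control. The ratios overlapped.

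By its averaged call Jun was well above background on control 3 alone, where 5 of 10 spots were. On PB-NICD 2, 1 of 10 spots was. Its median background-subtracted signal was 20.75, 14.75 and 11 in PB-NICD, against 5.75, 3.75, 23.25 and 11.75 in control. Its log2 ratio was 0.21, -0.01 and -0.03 in PB-NICD, against -0.07, -0.04, 0.49 and 0.07 in control. Neither gene was tested in the reported fit. With no filter on signal, Fos stood at -0.044 (limma adjusted p = 0.932) and Jun at -0.054 (limma adjusted p = 0.918). The added offset of 50 draws the ratios of such dim spots together, and no difference could be read at this signal.

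Egr1, a zinc finger factor induced through serum response factor, had log2 ratios of -0.58 (PB-NICD 1) and -1.56 (PB-NICD 3), against -1.18, -0.87, -1.21 and -1.22 in control. The PB-NICD 2 spot was an outlier and was left out. It read -1.73 when kept. The change was 0.051 ± 0.24 (SE, limma adjusted p = 0.936). Leaving out PB-NICD 1 gave -0.43, with PB-NICD 3 alone in its group. The Egr1 sample signal before normalization was 141, 84 and 69 in PB-NICD, against 13, 21, 52.5 and 35 in control. The sample channel normalized alone gave 0.54 (adjusted p = 0.206), and the reference channel differed by 0.37 between the groups. Processed signals gave 0.56 (adjusted p = 0.418). Btg2, an antiproliferative protein induced by p53 and growth factors, had 3 tested probes. The brightest read -0.06, -0.67 and -1.01 in PB-NICD, against -0.20, -0.19, 0.26 and -0.34 in control. The other probes gave -0.47 ± 0.22 and 0.030 ± 0.14, and the brightest -0.46 ± 0.22 (adjusted p = 0.256). Within slide 2 its change was -0.80 (adjusted p = 0.0480) and within slide 1 it was 0.14. The slides differed by -0.94 ± 0.33 (SE) in this change. They differed by -1.29 ± 0.39 for Atf3, by -0.79 ± 0.28 for Egr1 and by -0.43 to 0.089 for the remaining tested members. Slide 1 holds a single PB-NICD array, so this design can hardly test such differences, and nothing is read from them.

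**Figure D3:**
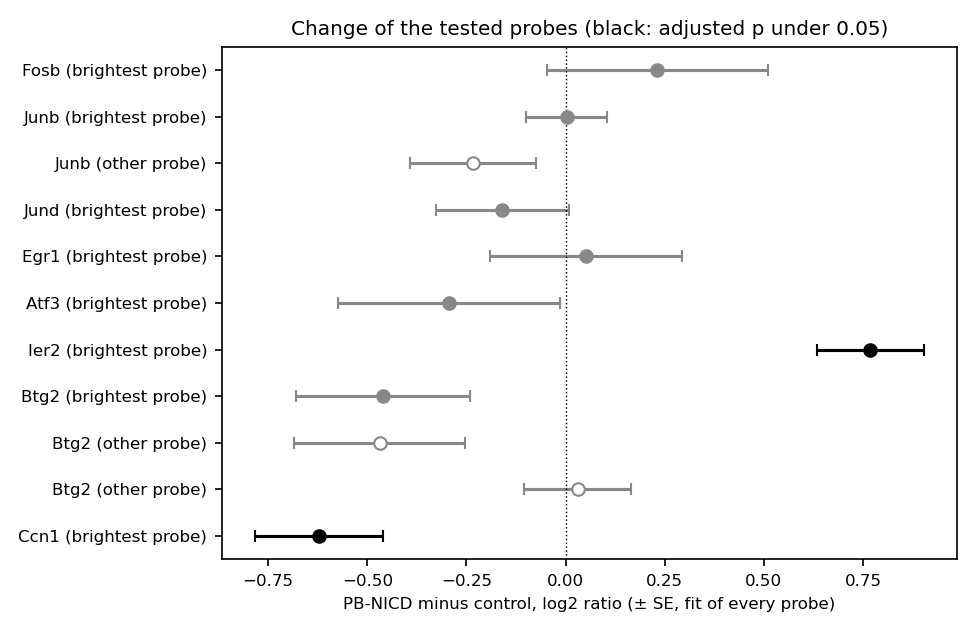
Change with SE of the 11 tested probes, PB-NICD minus control in log2 units on the horizontal axis. Filled points are the brightest probe of a gene and open points its other probes, and black points (Ier2 and Ccn1) passed an adjusted p of 0.05.

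The genes whose ratios ran most like 3 of the members over the 7 arrays were sought among 11810 named genes, with outlier spots kept. For Fos they were C1ql3 (r = 0.985), Fgfr1 (0.978) and Wdr19 (0.970). For Egr1 they were Wdr19 (0.993), Klc2 (0.970) and Sf3a1 (0.968), and for Jun Neto2 (0.994), Plod3 (0.961) and Lrrc8d (0.960). These are the highest of all values compared, each over 7 arrays that share slides and a reference, and Fos and Jun were at background.

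Among 34 other immediate-early and early response genes tested, 3 rose and 2 fell, with a median of -0.02. Among all items 3.58% were called higher and 5.01% lower. With median centring 11 rose and 0 fell, with a median of 0.38. Zfp36l1, which speeds decay of AU-rich transcripts, was 2.42, 2.11 and 2.01 in PB-NICD, against 0.89, 1.09, 0.85 and 0.99 in control. It rose by 1.22 ± 0.13 (adjusted p = 0.000267) and passed in all 24 alternatives. Gadd45b, a stress sensor of p38 and JNK signalling, rose by 1.12 ± 0.15 (adjusted p = 0.00144; other probe 0.82) and passed in all 24. Rhob, a small GTPase of endosomes, read 0.79, 0.32 and 0.40 in PB-NICD, against 1.38, 1.37, 2.05 and 1.75 in control. It fell by 1.13 (SE 0.19) and passed in 22 of 24 alternatives. It did not with median centring (-0.63, limma adjusted p = 0.0558) or within slide 1 (-0.58).

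The other 2 calls were less stable. The kinase Sik1 rose by 0.51 (adjusted p = 0.0306), was above background on 2 of 4 controls, and no longer passed without PB-NICD 1, PB-NICD 2 or any 1 control (adjusted p = 0.0507 to 0.136). The kinase Sgk1 fell by 0.77 (adjusted p = 0.0342) and no longer passed without PB-NICD 1, PB-NICD 3, control 1, control 2 or control 4 (adjusted p = 0.0646 to 0.126). An unadjusted p under 0.05 (limma) was reached by 11 of the 34 genes, beside 21.7% of all items. Egr2 (0.0088), Dusp1 (0.024) and Zfp36 (-0.028), inducible early genes picked after their values were seen, lay near 0 and did not pass. Egr2 and Dusp1 were above background on 2 of 4 controls. Others of the 34 that did not pass lay farther from 0, among them Ier5 (0.40), Maff (-0.39) and Fosl1 (-0.40).

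Upstream, 1 of 23 genes of the MAP kinase and serum response pathway passed, beside 8.58% of all items. Egfr, the epidermal growth factor receptor, read 0.82, 0.84 and 0.75 in PB-NICD, against -0.05, -0.08 and 0.0035 on control 1, 2 and 4. It rose by 0.85 ± 0.11 (adjusted p = 0.00143), with 0.72, 0.51 and 0.12 for its other probes. Srf, the serum response factor, stood at -0.030 (adjusted p = 0.945). None of 11 MAP kinase phosphatases and feedback inhibitors passed by limma. An unadjusted p under 0.05 was reached by 1 of them, beside 21.7% of all items. It was Dusp6, an ERK phosphatase (-0.43, limma adjusted p = 0.0702).

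Downstream, 3 of 11 AP-1 and Egr1 target genes fell, beside 5.01% of all items, and none rose, with a median of -0.41. This depended on the scaling: with median centring 2 rose and 0 fell, with a median of 0.10, in the sample channel alone 2 fell and the median was -0.13, with the 9 spots kept 0 fell, and without PB-NICD 1 only 1 fell. Spp1, osteopontin, fell by 0.79 (adjusted p = 0.00754), Hmox1, haem oxygenase, by 0.55 and Cd44, the hyaluronan receptor, by 0.73. Spp1 stood at -0.13 in the sample channel alone (adjusted p = 0.581), -0.098 with median centring and -0.45 with the 9 spots kept (adjusted p = 0.536). Hmox1 turned to 0.073 with median centring and no longer passed without PB-NICD 1 (-0.47, adjusted p = 0.0664), and Cd44 without any 1 array but control 3 (adjusted p = 0.0659 to 0.0996). Of 13 other bZIP genes, 2 fell, beside 5.01% of all items. Atf4, the factor of the integrated stress response, read -1.13, -1.34 and -0.85 in PB-NICD, against -0.17, 0.25, 0.14 and 0.30 in control, and fell by 1.24 (SE 0.15, adjusted p = 0.000812). Atf6, a sensor of the endoplasmic reticulum, fell by 0.69, with -0.17 for its other probe. The fall of Atf6 passed in 21 of 24 alternatives. It did not with median centring (-0.013, limma adjusted p = 0.971), with probes averaged (-0.43, 0.159) or within slide 1 (-0.68).

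Genes of the ATF4 response fell in 6 of 11 cases, beside 5.01% of all items, with a median of -0.57. Median centring gave 2 higher and 1 lower with a median of -0.13, the 9 spots kept gave 3 lower, and 4 were lower without PB-NICD 1. Asns, asparagine synthetase, fell by 1.66 (SE 0.13) and passed in all 24 alternatives. The serine synthesis enzymes Psat1 and Phgdh fell by 1.10 and 1.00, and Slc3a2, an amino acid transporter chain, by 1.07. Ddit4, an mTORC1 inhibitor, fell by 0.82 and Trib3, a pseudokinase, by 0.57. The call of Ddit4 was lost without PB-NICD 1 or PB-NICD 2, and that of Trib3 without PB-NICD 1, PB-NICD 2, control 2, control 3 or control 4. Of 10 p53 target genes 1 was called, Aen, an exonuclease, which rose by 0.47 (other probe 0.05). Of 9 YAP target genes 1 was called, Nuak2, a kinase, which fell by 0.46 (limma adjusted p = 0.0492). Among all items 8.58% were called.
The call of Aen was lost without any 1 PB-NICD array or control 1, and that of Nuak2 without any 1 array but control 2.

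**Figure D4:**
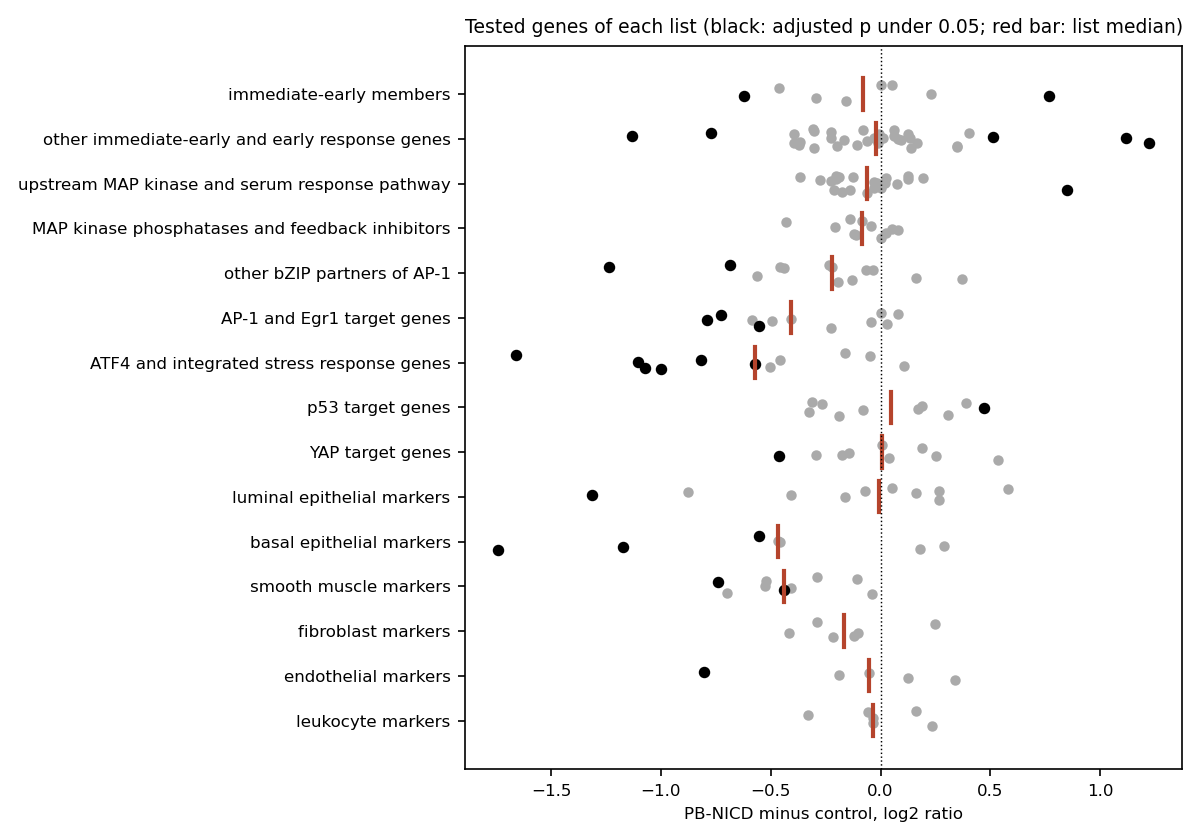
Change of every tested gene (points, PB-NICD minus control in log2 units) in each gene list, with the list median as a red bar and genes past an adjusted p of 0.05 in black. The median of the immediate-early members is -0.08 and that of the ATF4 list -0.57.

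Markers of cell types moved beside these genes, where 5.01% of all items were called lower in PB-NICD and 3.58% higher. Of 7 basal epithelial markers 3 fell, the keratins Krt5 (-1.74) and Krt15 (-1.17) and the integrin Itga6 (-0.55), and 2 had a change above 0. The basal list mean ratio was 0.35 to 0.50 in PB-NICD and 0.89 to 1.07 in control. Of 9 smooth muscle markers Actg2 and Tpm2 fell and none had a change above 0, with list means of 1.69 to 2.02 in PB-NICD and 2.06 to 2.37 in control. Median centring turned this direction, with a list median of 0.32, 1 marker higher and 0 lower, Actg2 at 0.43 and Tpm2 at 0.12, and 0 were called with processed signals or the sample channel alone. It also took the basal list median to 0.024, with 2 higher and 2 lower, and Krt5 and Krt15 passed as lower in all 24 alternatives. Summed on the linear ratio scale, the basal list was 10.1 to 11.4 in PB-NICD and 16.5 to 21.4 in control. The smooth muscle list summed to 36.7 to 47.3 in PB-NICD and 51.5 to 61.0 in control. Of 10 luminal markers Tmprss2, a membrane protease, fell by 1.31, with -0.61 for its other probe. With its probes averaged it was -0.17 (limma adjusted p = 0.892). That average takes on each array only the probes not set to missing, so it is not the mean of the probe changes. Of the 10 luminal markers, 5 had a change above 0. The luminal list mean was 3.54 to 3.66 in PB-NICD and 3.67 to 3.92 in control. Its sum was 1051 to 1261 in PB-NICD and 1288 to 3502 in control. Most of that sum came from Pbsn alone, so it does not speak for the list. Of 5 endothelial markers Emcn fell and 2 had a change above 0. None of 6 fibroblast and 6 leukocyte markers passed by limma, with 0 and 1 at an unadjusted p under 0.05, beside 21.7% of all items. The part of cell makeup in the changes of Ier2, Ccn1 and the other genes named was not tested. Itga6 no longer passed without PB-NICD 2 or PB-NICD 3, Tmprss2 without control 4, Emcn without PB-NICD 1, PB-NICD 2, control 3 or control 4, and Actg2 without any 1 array but control 3.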

How the data were processed

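The members and the gene lists were chosen with earlier results of these data known. Per the file headers, Feature Extraction 10.7.3.1 of Agilent gave each spot's intensity. Deposited intensity columns used were median spot and background signals, and processed signals that the software had corrected. The deposited LogRatio is the log10 of red over green, used to check direction, and deposited flags mark spots above background, saturated or outlying. The authors deposited a value table whose values look log2, with column medians of -0.011 to -0.0044; how it was normalized is not stated there. Its columns correlated with their own arrays at r = 0.849 to 0.895. That alone does not match a column to its array, since PB-NICD and control arrays correlated at 0.822 to 0.903. After centring, r was 0.510 to 0.712 with the own array and 0.141 to 0.358 with the best other array.

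Background was corrected by normexp with an offset of 50, followed by loess, in limma 3.58.1 under R 4.3.3. Before this, 9 spots with a background over the spot by more than 20 were left out. This step was chosen after the data and the calls had been seen. Of the spots, 6 lay on PB-NICD 1, whose fitted background mean was -220.1 with them and -7.76 without. The other 3 lay on control 3, whose fitted mean was -22.4 with them and -9.33 without. Keeping the 9 spots, as earlier processing did, is given as an alternative. Outlier spots were set to missing and spots of a probe averaged. Probes entered the test with a sample channel well above background on 3 or more arrays and 2 or more values per group, and the brightest probe stood for a gene. Group was the only term. Accessions were named through RefSeq's GRCm38.p6 table.

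The text names all members, the called genes of each list or those with the lowest p, and the 3 genes most like Fos, Egr1 and Jun. Egr2, Dusp1, Zfp36, Srf and the marker Pbsn were chosen after their values were seen. Of the 7 promoter motifs, TGACG was added after the promoters had been read. On simulated data of 16939 items, 98% of changes of size 1 (log2) and 100% of size 2 were recovered. The 8 tested members all changed by less than 1, and recovery at their sizes is not given here. The shares are not those of single genes. They need not hold for Fosb, Atf3 and Egr1, whose SE was 0.28, 0.28 and 0.24. The number of arrays limits the precision. The titles do not say that same-numbered arrays pair mice, so the numbers were not taken as pairs. Same-numbered arrays of the groups correlated in their deviations at r = 0.32, -0.24 and 0.085. Arrays numbered 1 share a slide, as do those numbered 3, and those numbered 2 do not, so these values cannot test pairing.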

Additional observations from a re-analysis of the deposited data

Results flagged for a closer look

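Egr1 on control 2 had a log2 ratio of -0.87, apart from the other 3 controls at -1.18 to -1.22. Its gap to the nearest control was 0.887 of the group's range, above Dixon's 95% critical value for 4 samples. The 7 member genes with 4 control values were examined this way, and chance marks about 1 in 20 groups.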

How the results depend on the processing

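Ier2 kept its direction in all 24 alternatives and Ccn1 in all but median centring; Aquantile scaling leaves ratios unaltered and so repeats the reported values. Of the 8 members 2 were called, against 3 with median centring (Ier2, Junb and Jund, all higher), 1 with processed signals, an offset of 10, the sample channel alone or no filter, and 0 within slide 1 or with the 9 far-background spots kept. With no filter 10 members were tested, Fos and Jun included. Leaving out each array in turn gave 1 to 2 called members. The median change of the members was 0.51 with median centring, 0.29 within slide 1 and -0.34 to -0.014 leaving out each array, lowest without PB-NICD 1. All items called were 1454, with 41.7% higher, against 4577 with median centring (93.9% higher), 3516 from the authors' value table, 455 with the 9 spots kept (14.9% higher), 642 within slide 1 and 851 to 1475 leaving out each array. Median centring moved the median of all items to 0.27. Signs turned as follows, the called Ccn1 among them, and the cause was not tested. Junb was 0.82 with median centring (adjusted p = 0.0262), -0.12 with probes averaged, -0.014 and -0.0022 under a fixed or random slide block, -0.0026 and -0.021 within slides 1 and 2, -0.030 with the 9 spots kept and -0.032 to 0.032 leaving out each array. Jund was 0.70 with median centring, called there, and 0.048 in the sample channel. Btg2 was 0.14 both with median centring and within slide 1, Atf3 0.44 within slide 1, and Ccn1 0.057 with median centring. Egr1 was -0.17 with outliers kept, -0.34 within slide 2, -0.038 in the value table and -0.43 to 0.54 leaving out each array. With a replicate block, Ier2 was 0.81 (adjusted p = 0.0119), Ccn1 -0.63 (adjusted p = 0.0304) and 1155 items were called; control 4 was left out. Dim sample signal limits Fos, Jun and the second Ier2 probe.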
